A study of Homo sapiens with 6 samples.

Results

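Prostaglandin E2 synthesis and breakdown was examined through 9 genes in parental ZR-75-1 cells, a human ER-positive breast cancer line. The genes were the PGE2 synthases *PTGES*, *PTGES2* and *PTGES3*, the cyclooxygenases *PTGS1* and *PTGS2*, the breakdown enzymes *HPGD*, *PTGR1* and *PTGR2*, and the uptake carrier *SLCO2A1*. All 9 were found by Ensembl identifier among the 60656 genes of the count table. *PTGES* was chosen by its rise in these same libraries, from among the oestrogen response genes of the study, so its change is described here without a test. The other 8 genes were taken by function, with earlier results of these libraries known, and the changes of those with enough counts were tested. The 6 libraries were 3 from cells given DMSO and 3 from cells given abemaciclib, a CDK4/6 inhibitor, at 500 nM, each for 4 days in serum-containing RPMI-1640 medium. The model is a single cell line in culture.

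Prostaglandins are signalling lipids made from arachidonic acid, which phospholipases release from membranes. The cyclooxygenases PTGS1 and PTGS2 turn it into prostaglandin H2, and a terminal synthase then decides which prostaglandin is formed, PGE2 in the case of PTGES. PGE2 acts on receptors of the cell that made it or of its neighbours, is taken up by SLCO2A1, and is inactivated by HPGD and then by the reductases PTGR1 and PTGR2. In breast tissue, PGE2 is best known for raising aromatase, and with it local oestrogen, in the stroma.

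Libraries held between 3317860 and 4013156 counts on genes. The 3′ mRNA kit reads near the poly(A) end, so transcript length should weigh little when levels of different genes are compared. Other differences between genes, such as pseudogenes or overlap with another gene, can bear on such comparisons and were not tested. Levels are given as CPM, each count relative to the total of its library with TMM factors, and a count of 0 in a library allows up to 3 counts, or 0.736 to 0.904 CPM, a limit that covers counting error only. *MKI67*, a proliferation marker, lay between 491 and 554 CPM with DMSO and between 3.19 and 7.53 CPM with abemaciclib. All 8 luminal markers examined were detected, with summed levels of 7437 to 7892 CPM with DMSO and 8479 to 9465 CPM with abemaciclib. Of these, *ESR1* (log2 fold change 0.83) and *KRT19* (0.45) were higher, *KRT18* (−0.34) was lower, and *KRT8*, *GATA3*, *FOXA1*, *EPCAM* and *CDH1* did not pass the threshold. Of 9 markers of basal, stromal, endothelial and immune cells, 7 had 0 counts in every library, *KRT5*, *KRT14* and *PTPRC* among them, and the sum was 10.6 to 15.7 CPM with DMSO and 10.1 to 15.3 CPM with abemaciclib, all of it *COL1A1* but for 1 count of *CD68*. The part of these differences in the results was not tested. Abemaciclib replicate 3 stood furthest from the other libraries of its group, and values without it are given where they bear on a gene. Fewer transcripts per cell and fewer cells with a transcript cannot be told apart in such bulk samples.

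Transcripts of 6 of the 9 genes were found, and their levels spanned a wide range, as the plot of the genes by library shows. *PTGES*, which encodes the inducible membrane-bound PGE2 synthase, was the most abundant in both groups. With DMSO the order was *PTGES*, *PTGES3*, *PTGES2*, *PTGR1*, *HPGD* and *PTGR2*, and no 2 neighbours in this order had overlapping ranges. With abemaciclib the order was the same, but the ranges of *PTGES2* and *PTGR1* overlapped, as did those of *HPGD* and *PTGR2*. *PTGS1*, *PTGS2* and *SLCO2A1* had 0 counts in all 6 libraries.

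**Figure D1:**
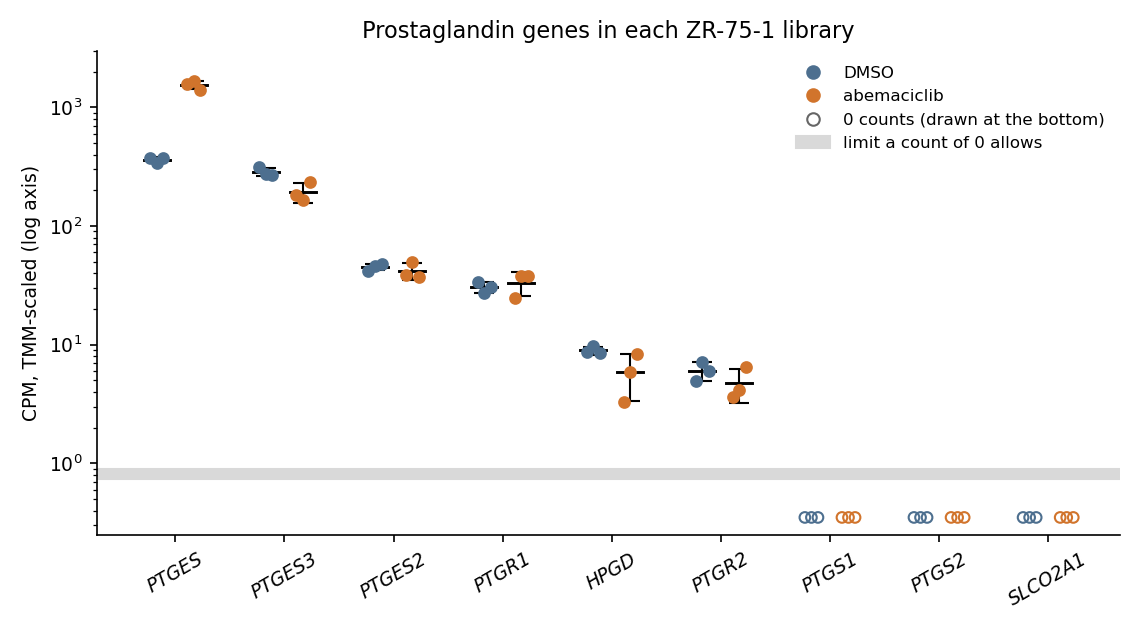
Level of each gene in CPM on a log axis, with 1 point per library (blue DMSO, orange abemaciclib), the mean as a bar and the SD of 3 libraries as whiskers. *PTGES* is the only gene whose abemaciclib points all lie above its DMSO points, and open points mark the 3 genes with 0 counts.

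*PTGES* lies on chromosome 9 of GRCh38 from 129738331 to 129753042, on the minus strand. Its level was 374, 340.0 and 374 CPM in the 3 DMSO libraries. With abemaciclib it was 1576, 1659 and 1413 CPM. The lowest abemaciclib library was thus well above the highest DMSO library. The group means were 363 ± 19.5 CPM and 1549 ± 125 CPM (SD, n = 3 each). *PTGES* was thus 4.27-fold higher, a log2 fold change of 2.09. Behind these values stood 1151 to 1295 counts per DMSO library and 5235 to 6758 per abemaciclib library. By level, *PTGES* ranked 382 among the 10863 genes with enough counts for a test with DMSO, and 69 with abemaciclib. By rise it ranked 47, and 29 of the genes that rose more had a mean of at least 10 CPM in either group. Its place at the upper right of the cloud of genes is shown in the plot of change against level. In each library, *PTGES* made up 0.0346% to 0.0374% of all counts with DMSO and 0.138% to 0.168% with abemaciclib.

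**Figure D2:**
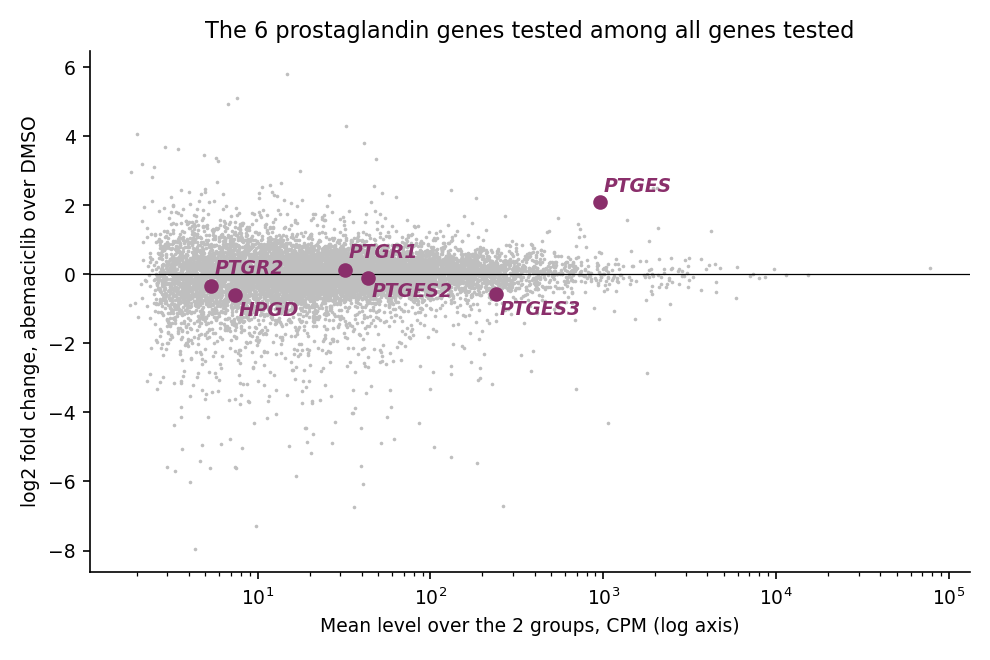
Change with abemaciclib (log2 fold change) against mean level over both groups (CPM, log axis), with 1 grey point for each of the 10863 genes tested and the 6 prostaglandin genes in purple. *PTGES* stands at a log2 fold change of 2.09, *PTGES3* at −0.57, and the other 4 lie within the bulk of genes.

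The promoter windows of *PTGES* and *PTGES3*, from 250 bases before to 50 bases after the RefSeq start, are printed because these were the 2 genes whose groups stood apart with many counts. Both are from GRCh38.p14 and run 5′ to 3′ on the minus strand. They carry in capitals each GC box, the letters GGGCGG or their reverse complement CCGCCC.
PTGES, chr9:129752993-129753292: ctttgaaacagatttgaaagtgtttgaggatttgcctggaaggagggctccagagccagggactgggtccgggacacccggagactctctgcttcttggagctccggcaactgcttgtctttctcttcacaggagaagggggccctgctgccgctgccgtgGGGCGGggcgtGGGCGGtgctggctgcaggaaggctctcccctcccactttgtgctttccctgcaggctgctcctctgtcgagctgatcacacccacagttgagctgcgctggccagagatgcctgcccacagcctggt
PTGES3, chr12:56688235-56688534: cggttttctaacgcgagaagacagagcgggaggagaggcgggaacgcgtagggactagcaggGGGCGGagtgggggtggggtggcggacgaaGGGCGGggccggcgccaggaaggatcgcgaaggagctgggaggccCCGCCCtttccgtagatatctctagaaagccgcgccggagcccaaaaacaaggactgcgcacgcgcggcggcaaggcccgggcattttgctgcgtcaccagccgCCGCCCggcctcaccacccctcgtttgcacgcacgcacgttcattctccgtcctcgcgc
The *PTGES* window held 2 GC boxes, which begin 89 and 78 bases before the start, and that of *PTGES3* held 4, which begin 188, 158, 113 and 9 bases before it. At least 1 GC box, on either strand, stood in 45.0% of the 35116 windows of the same length. It stood in 11 of the 13 windows of the 8 genes with an entry. The *PTGES* window also held TTTGAA, the core of the cell cycle genes homology region, 249 and 238 bases before the start, and 15.2% of all windows held this motif on either strand. None of these matches in the *PTGES* and *PTGES3* windows overlapped another. No window of the 8 genes with an entry held the palindromic oestrogen response element (GGTCA and TGACC spaced by 3 bases), which 0.0570% of all windows held. An E2F site (TTTCGCGC, TTTGGCGC or TTTCCCGC, on either strand) was found in 1 of their 13 windows, of *PTGES2*, against 2.74% of all windows. A match of this kind is a description of the letters and does not show that a factor binds. The share of G and C was 61.7% in the *PTGES* window and 68.0% in that of *PTGES3*, against a median of 58.7% over all windows. *SLCO2A1* had no entry.

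Among the other synthases, *PTGES3* fell and *PTGES2* did not pass the threshold. *PTGES3* encodes p23, a co-chaperone of HSP90 that is also described as a cytosolic PGE2 synthase, and lies on chromosome 12 from 56663341 to 56688408. Its level was 313, 276 and 269.9 CPM with DMSO and 182, 165 and 233 CPM with abemaciclib. Every abemaciclib library was below every DMSO library, and abemaciclib replicate 3 lay closest to them. The means were 286 ± 23.2 CPM and 193 ± 35.8 CPM (SD, n = 3 each). On the log2 scale the fold change was −0.57 (95% interval −0.80 to −0.33, adjusted *P* = 0.000408, edgeR quasi-likelihood test). *PTGES3* has 5 annotated processed pseudogenes, none of which held more than 2 counts in a library. Without abemaciclib replicate 3 the log2 fold change was −0.73.

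*PTGES2*, a membrane-associated synthase, lies on chromosome 9 from 128120693 to 128128462. Its level was 42.1, 46.1 and 47.6 CPM with DMSO and 38.8, 50.1 and 36.8 CPM with abemaciclib. The groups overlapped, with abemaciclib replicate 2 the highest library of all 6. Its log2 fold change was −0.11 (95% interval −0.44 to 0.23, adjusted *P* = 0.691 from the same test).

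Among the synthase transcripts, *PTGES* went from near parity with the other 2 genes together to the large majority. *PTGES* held 51.3%, 51.4% and 54.1% of the counts of the 3 synthase genes in the DMSO libraries, and 87.7%, 88.5% and 83.9% in the abemaciclib libraries. The exact Clopper-Pearson 95% intervals, which cover counting error only, ran from 49.3% to 56.1% over the DMSO libraries and from 83.0% to 89.2% over the abemaciclib libraries. The mean share was 52.2 ± 1.60% with DMSO and 86.7 ± 2.45% with abemaciclib (SD, n = 3 in each group). The summed level of the 3 genes was 694 ± 33.2 CPM and 1784 ± 95.4 CPM (SD, n = 3 in each group). These shares include the gene that was selected on its rise and are a description.

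**Figure D3:**
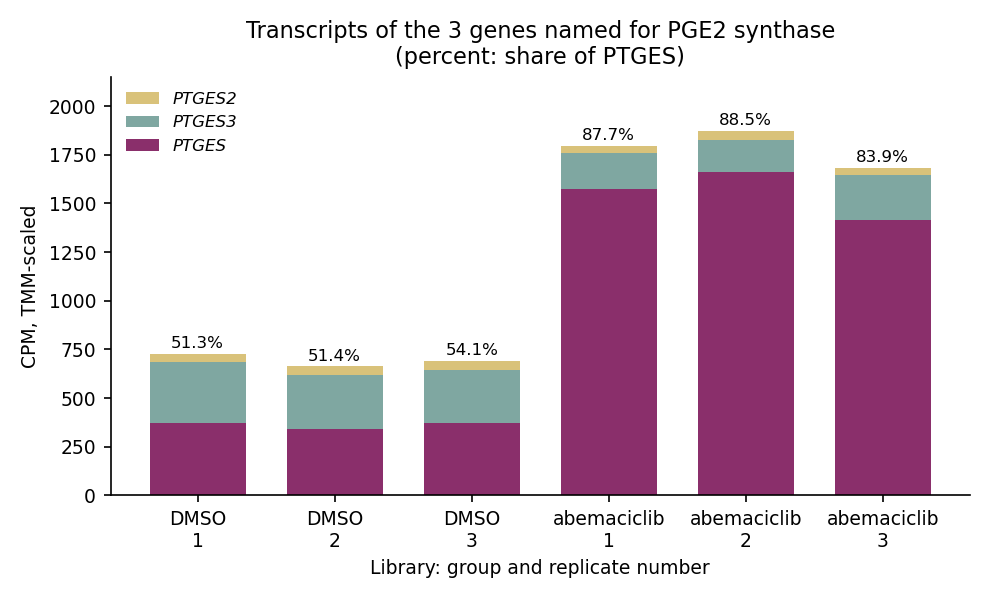
Level in CPM of the 3 PGE2 synthase genes stacked per library, with the share of *PTGES* in their counts above each bar. *PTGES* makes up 51.3% to 54.1% of each DMSO bar and 83.9% to 88.5% of each abemaciclib bar, and the *PTGES3* segment is smaller with abemaciclib.

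The cyclooxygenases, which act before the synthases, were not detected. *PTGS1*, the constitutive enzyme, lies on chromosome 9 from 122370530 to 122395703, and *PTGS2*, the inducible one, on chromosome 1 from 186671791 to 186680922. Both had 0 counts in each of the 6 libraries, which allows a level of up to 0.736 to 0.904 CPM depending on the library. The last 500 bases of the canonical transcript of both genes overlapped no exon of another gene, on either strand, in GENCODE release 44. The study counted on an earlier release, and reads shared at the counting were not examined.

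The breakdown enzymes were present at low to moderate levels, and none passed the threshold. *HPGD*, the 15-hydroxyprostaglandin dehydrogenase that takes the first step of PGE2 inactivation, lies on chromosome 4 from 174490175 to 174523154. Its level was 8.65, 9.75 and 8.43 CPM with DMSO and 3.31, 5.89 and 8.34 CPM with abemaciclib. All abemaciclib libraries were below all DMSO libraries, although abemaciclib replicate 3 was below the lowest of them by less than the SD of the DMSO libraries, 0.704 CPM. Its log2 fold change was −0.60 (95% interval −1.38 to 0.18, adjusted *P* = 0.269, edgeR quasi-likelihood test), with 28 to 33 counts per DMSO library and 11 to 31 per abemaciclib library. Without abemaciclib replicate 3 it was −0.93 (adjusted *P* = 0.125), and without abemaciclib replicate 1 it was −0.33 (adjusted *P* = 0.607), the ends of the range over all alternatives. Counts of *PTGES* over counts of *HPGD* gave a log2 ratio of 5.12 to 5.47 with DMSO and of 7.41 to 8.90 with abemaciclib, a description that includes the rise of *PTGES*.

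*PTGR1*, a reductase of 15-keto prostaglandins that also inactivates leukotriene B4, lies on chromosome 9 from 111549722 to 111599893. Its level was 33.7, 27.2 and 30.7 CPM with DMSO and 24.7, 37.6 and 37.9 CPM with abemaciclib. The lowest and the highest of the 6 libraries were both from abemaciclib. Its log2 fold change was 0.13 (95% interval −0.26 to 0.53, adjusted *P* = 0.677 from the same test).

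*PTGR2*, the other reductase, lies on chromosome 14 from 73851831 to 73885726. Its level was 4.90, 7.09 and 6.02 CPM with DMSO and 3.61, 4.17 and 6.45 CPM with abemaciclib. The groups overlapped, and its log2 fold change was −0.33 (95% interval −1.22 to 0.55, adjusted *P* = 0.631 from the same test) on 12 to 24 counts per library. The 3′ end of *PTGR2* overlaps a long non-coding RNA on the opposite strand, and the strand setting of the counting is not stated in the sources used here, so its counts are uncertain.

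*SLCO2A1*, the carrier that brings PGE2 into the cell for breakdown, lies on chromosome 3 from 133932701 to 134052184. It had 0 counts in each library, with the same limit as the cyclooxygenases.

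Of the 9 genes, 6 had enough counts for a test and 3 did not. With *PTGES* set aside as selected, *PTGES3* was lower at an adjusted *P* under 0.05 and the other 4 were not called in either direction, beside 12.5% of all genes tested called higher and 13.3% called lower. For 1 of the 6 the abemaciclib libraries all lay above those with DMSO, beside 19.1% of all genes tested, and for 2 all lay below, *PTGES3* and *HPGD*, beside 20.0%. Since *PTGES* entered for its rise, these counts say nothing about the 9 genes as a group. When single libraries were left out, *PTGES* kept a log2 fold change of 2.05 to 2.16, and *PTGES3* one of −0.73 to −0.46 (adjusted *P* from 2.5e-09 to 0.0105, edgeR quasi-likelihood test).

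To place the 9 genes, 59 other genes of the pathway and of its surroundings were examined in 8 lists, of which 26 had enough counts for a test. Of these, 3 were higher (11.5%) and 4 were lower (15.4%), beside 12.5% and 13.3% of all genes tested, and the median log2 fold change was 0.04 against 0.00 over all genes tested. DESeq2 called 2 higher and 1 lower. The intervals of all those tested are shown in the plot of pathway changes.

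**Figure D4:**
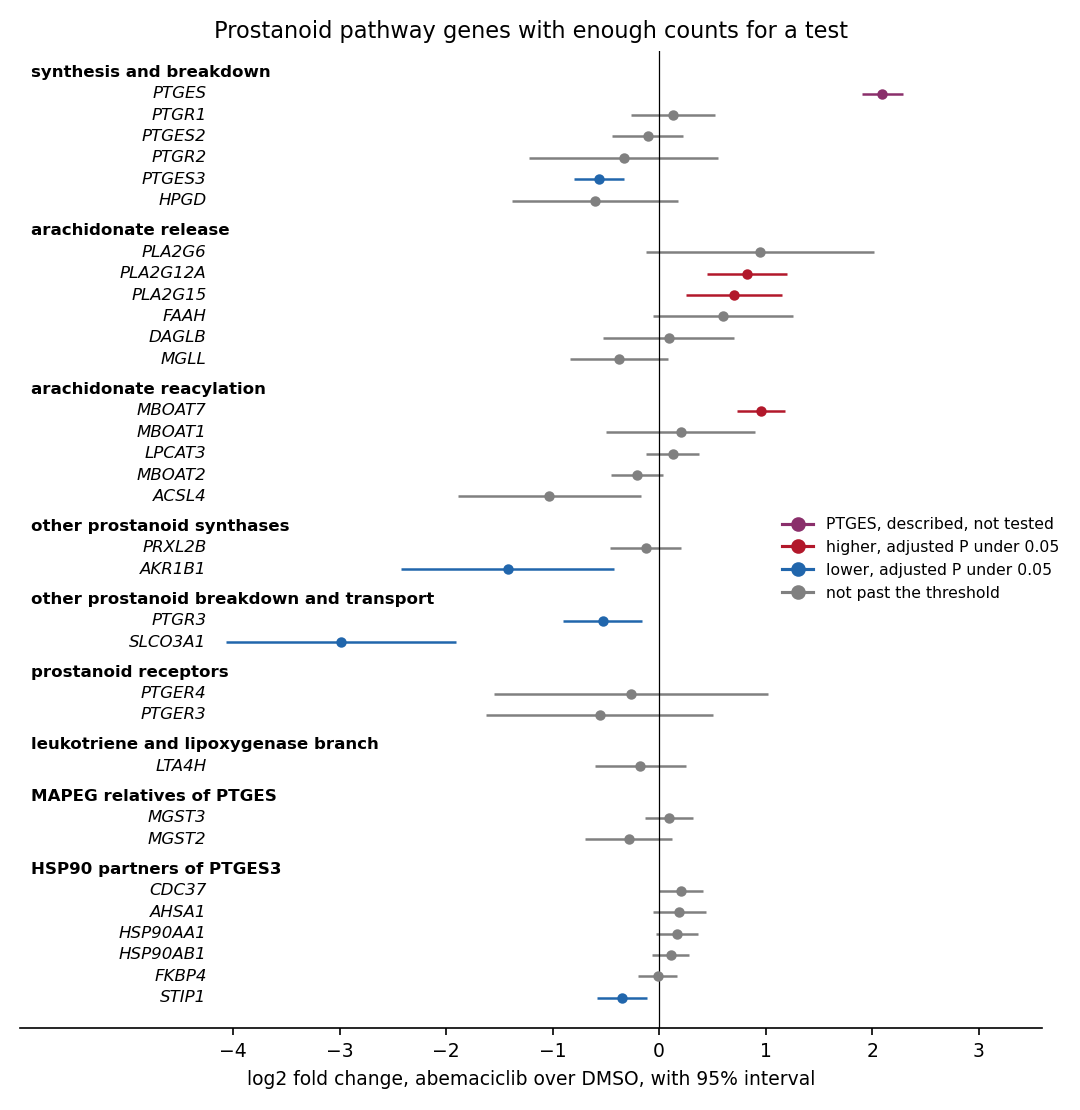
Change with abemaciclib (log2 fold change, points) with its 95% interval (bars) for the genes tested in each list, red where higher and blue where lower at an adjusted *P* under 0.05. *PTGES*, in purple, stands furthest to the right at 2.09, and *SLCO3A1* furthest to the left at −2.99. The bar of *PTGES* makes no allowance for its selection on this rise and is not a test.

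Of 12 genes for enzymes that release arachidonic acid or its precursors, 6 were tested. By edgeR 2 were higher, beside 12.5% of all genes tested, and 0 were lower (also 0 at unadjusted *P* values under 0.05 or with DESeq2), while DESeq2 called 1 higher. *PLA2G12A*, a secreted phospholipase A2, went from 21.6, 29.5 and 26.5 CPM with DMSO to 49.97, 49.8 and 38.2 CPM, a log2 fold change of 0.83 (adjusted *P* = 0.00104). *PLA2G15*, the lysosomal phospholipase A2, went from 13.8, 22.5 and 20.5 CPM to 28.6, 37.8 and 25.8 CPM, a log2 fold change of 0.70 (adjusted *P* = 0.0183). In both, all abemaciclib libraries were above all DMSO libraries. The call of *PLA2G15* was lost with DESeq2 (adjusted *P* = 0.0522), without DMSO replicate 1 (0.123) and without abemaciclib replicate 2 (0.14), the range over all its alternatives being 0.00452 to 0.14. *DAGLB*, *FAAH* and *MGLL*, enzymes that make or split endocannabinoids, had log2 fold changes of 0.09, 0.60 and −0.38 and did not pass the threshold. Neither did *PLA2G6*, at 0.95 (adjusted *P* = 0.194, edgeR quasi-likelihood test). It had 6, 10 and 7 counts with DMSO and 17, 21 and 11 with abemaciclib, and its groups did not overlap. *PLA2G4A*, the cytosolic phospholipase A2 that classically feeds the cyclooxygenases, had 13, 11 and 6 counts with DMSO and 6, 5 and 4 with abemaciclib, too few for a test.

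Of 5 genes for enzymes that activate fatty acids or put them into membrane lipids, 1 was higher and 0 lower by edgeR, beside 12.5% and 13.3% of all genes tested. At unadjusted *P* values under 0.05, 1 was lower, the ligase *ACSL4*, and 0 were lower with DESeq2. *ACSL4* had 7.21, 7.98 and 7.53 CPM with DMSO and 3.61, 3.44 and 4.03 CPM with abemaciclib, groups that did not overlap (log2 fold change −1.03, adjusted *P* = 0.0702, edgeR quasi-likelihood test). With at least 10 counts required in every library, edgeR called 1 gene of this list lower. *MBOAT7*, which returns arachidonic acid to phosphatidylinositol, had 88.6, 86.3 and 92.8 CPM with DMSO and 184, 168 and 168 CPM with abemaciclib. Its groups lay far apart, and the log2 fold change was 0.95 (95% interval 0.73 to 1.18, adjusted *P* = 9.97e-08, edgeR quasi-likelihood test). *LPCAT3*, *MBOAT1* and *MBOAT2* had log2 fold changes of 0.13, 0.20 and −0.20 and did not pass the threshold, and the 3′ end of *LPCAT3* overlaps *EMG1* on the opposite strand.

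Synthases of other prostanoids were mostly absent or low. *PTGDS*, *HPGDS* and *PTGIS*, for prostaglandin D2 and prostacyclin, had 0 counts in all libraries. *TBXAS1*, the thromboxane synthase, had at most 4 counts in any library, and *AKR1C3*, which makes prostaglandin F2α, had at most 9. *AKR1B1*, an aldose reductase that can also form prostaglandin F2α, had 11.5, 6.79 and 4.22 CPM with DMSO and 2.11, 1.96 and 4.30 CPM with abemaciclib. Its groups overlapped, and its log2 fold change of −1.42 passed the threshold (adjusted *P* = 0.0314). That call was lost with DESeq2 (0.0793), with a replicate block (0.0697) and on leaving out DMSO replicate 1 (0.266) or 2 (0.0692), or abemaciclib replicate 1 (0.0946) or 2 (0.121), in an overall range of 0.0104 to 0.266. *PRXL2B*, a prostamide and prostaglandin F synthase, had a log2 fold change of −0.13 and did not pass the threshold, and its 3′ end overlaps *MMEL1* on the opposite strand.

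Of 9 genes in breakdown and transport outside the main set, 2 were tested, and edgeR called both lower, beside 13.3% of all genes tested. Only 1 was lower with DESeq2, with a replicate block, with at least 10 counts in every library, and on leaving out any of 4 libraries. *SLCO3A1*, a carrier that transports prostaglandins, had 6.92, 10.9 and 13.0 CPM with DMSO and 0.903, 0.491 and 2.42 CPM with abemaciclib, on 2 to 9 counts per abemaciclib library. The groups did not overlap, and the change on the log2 scale was −2.99 (95% interval −4.07 to −1.91, adjusted *P* = 8.06e-05, edgeR quasi-likelihood test). It was −3.85 without abemaciclib replicate 3 and −2.57 without abemaciclib replicate 2. *PTGR3*, another reductase of 15-keto prostaglandins, had 42.4, 39.9 and 35.2 CPM with DMSO and 22.9, 28.0 and 30.4 CPM with abemaciclib. The groups did not overlap, and the log2 fold change was −0.53 (adjusted *P* = 0.0307, edgeR quasi-likelihood test). Its call was lost with DESeq2 (0.0834), with a replicate block (0.0533) and on leaving out DMSO replicate 1 (0.113) or 2 (0.089), or abemaciclib replicate 1 (0.124) or 2 (0.0637), in an overall range of 0.0189 to 0.124. *CBR1* and *SLCO2B1* had 0 counts in all libraries, *ABCC4*, which exports PGE2, had 2 counts in 1 library only, and *CBR3*, *AKR1C1* and *AKR1C2* had at most 5 counts in any library. *SLCO4A1* had 5 to 15 counts per library and was not tested.

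Receptors for prostanoids were low throughout. Of 9 genes, *PTGER3* and *PTGER4*, which encode the PGE2 receptors EP3 and EP4, were tested, and 0 were higher or lower (by edgeR, and also 0 at unadjusted *P* values under 0.05 or with DESeq2). *PTGER3* had 4.90, 1.77 and 8.43 CPM with DMSO and 3.31, 4.17 and 2.69 CPM with abemaciclib. *PTGER4* had 1.73, 5.32 and 1.51 CPM with DMSO and 3.01, 0.736 and 3.50 CPM with abemaciclib. In both the groups overlapped widely, and the 95% intervals of the log2 fold change were −1.62 to 0.51 and −1.55 to 1.024. *PTGER1*, *PTGDR* and *PTGFR* had 0 counts in all libraries, and *PTGER2* and *PTGDR2* had at most 2 in any library. *PTGIR* and *TBXA2R* had at most 11 counts in any library.

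Of 8 genes of the leukotriene and lipoxygenase branch, only *LTA4H*, the leukotriene A4 hydrolase, was tested, and its log2 fold change was −0.18 (95% interval −0.61 to 0.25, adjusted *P* = 0.591, edgeR quasi-likelihood test). *ALOX12* and *EPHX2* had 0 counts in all libraries, and *ALOX5*, *ALOX5AP*, *ALOX15*, *ALOX15B* and *LTC4S* had at most 6 in any library. *PTGES* belongs to the MAPEG family of membrane proteins, and among 5 relatives *MGST2* and *MGST3* were tested, with log2 fold changes of −0.28 and 0.10 and 0 called by edgeR (also 0 at unadjusted *P* values under 0.05 or with DESeq2). *MGST1*, another relative, had 0 counts in all libraries. *MGST3* was abundant, at 168 to 222 CPM over all 6 libraries, with a 95% interval of its log2 fold change of −0.13 to 0.32.

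Partners of *PTGES3* in the HSP90 machinery were examined as well. Of 6 genes, all tested, 0 were higher and 1, *STIP1*, was lower by edgeR, beside 12.5% and 13.3% of all genes tested. Counts this small do not set the list apart from all genes. Again 0 were higher at unadjusted *P* values under 0.05, and DESeq2 called 0 in either direction. *STIP1*, the adaptor between HSP70 and HSP90, had 189.5, 207 and 246 CPM with DMSO and 181, 181 and 143 CPM with abemaciclib, a log2 fold change of −0.35 (adjusted *P* = 0.0259). Its call was lost with DESeq2 (0.0515), with a replicate block (0.0683) and on leaving out DMSO replicate 2 (0.0633) or 3 (0.194), or abemaciclib replicate 3 (0.0779), in an overall range of 0.0179 to 0.194. *HSP90AA1* and *HSP90AB1*, the HSP90 genes, and *AHSA1*, *CDC37* and *FKBP4* had log2 fold changes from −0.01 to 0.20, none past the threshold. However, *CDC37* was higher without abemaciclib replicate 3 (log2 fold change 0.29, adjusted *P* = 0.0079, edgeR quasi-likelihood test, in a range of 0.0079 to 0.554). At its 3′ end, *FKBP4* overlaps *ITFG2-AS1* on the opposite strand.

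The genes around *PTGES* on chromosome 9 had smaller log2 fold changes than *PTGES* itself. Within 250 kb on either side, 8 genes were tested, 3 of them, *LINC00963*, *ASB6* and *C9orf78*, higher and 0 lower by edgeR, beside 12.5% and 13.3% of all genes tested. At unadjusted *P* values under 0.05 also 0 were lower, and DESeq2 called 2 higher and 0 lower, without *ASB6* (adjusted *P* = 0.0961). Their log2 fold changes ranged from −0.32 to 0.85. The 5 genes with the pattern nearest to that of *PTGES*, by Euclidean distance over the 6 libraries between log2 CPM profiles centred on the DMSO mean, were *TPD52L1* (distance 0.36), *PPIF* (0.49), *CGNL1* (0.52), *CD300LD-AS1* (0.58) and *DOK7* (0.59), out of 8118 genes with a mean of at least 10 CPM. All 5 were less abundant than *PTGES*, with abemaciclib means of 25.01 to 302 CPM. This likeness is a description of 6 libraries.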

How the data were processed

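RNA from 6 libraries of parental ZR-75-1 cells was analysed. Per the study's methods and the submitters' processing notes, the authors removed adapters and low-quality bases with BBDuk, mapped the reads to hg38 by STAR 2.7.5b and counted them on GENCODE genes by featureCounts 2.0.1 (strand setting not given in the sources used here). The deposited values are raw counts per gene and library, neither normalized nor filtered. Groups came from the treatment label. Identifiers gave a symbol for 60401 genes and none for 255. Positions came from GENCODE release 44 on the same assembly, a later release than that used for the counting. Promoter windows came from RefSeq, with entries for 8 of the 9 genes.

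Abemaciclib was compared with DMSO over the whole table with edgeR 4.0.16 under R 4.3.3 (TMM after filterByExpr, quasi-likelihood test, Benjamini–Hochberg adjustment over 10863 genes, threshold 0.05). The intervals rest on a standard error, the log2 fold change over the square root of F. The fit was tested on simulated data first. The genes and lists were chosen with earlier results of these data known. Named genes were the 9 genes, and from the other lists those past the threshold, those with a mean of at least 10 CPM in either group, and all of a list with fewer than 3 tested. *ACSL4*, *PLA2G6* and a few low genes with few or no counts were named outside this rule, after their values were seen. Alternatives were DESeq2 1.42.0, its size factors, library totals, no filter, at least 10 counts in every library, a replicate block, other prior counts and each library left out. The labels call the libraries replicates, and the study describes independent biological replicates. Replicates differed by more than sampling noise in all 6 pairs (chi-square per degree of freedom 2.78 to 6.79), so none was counted as a repeat. The common biological coefficient of variation was 13.2%.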

Additional observations from a re-analysis of the deposited data

How the results depend on the processing

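*PTGES3* was lower, and *PTGES2*, *HPGD*, *PTGR1* and *PTGR2* were not called, under every alternative run. With each library left out, the mean share of *PTGES* among the synthase genes was 51.3% to 52.7% with DMSO and 85.8% to 88.1% with abemaciclib, a description. Adding pseudogene counts to *PTGES3*, an alternative chosen after seeing the data, kept its call. With at most 2 counts per pseudogene and library, it could hardly have changed it. Reads that match both *PTGES3* and a pseudogene were not examined. Among the 59 other pathway genes, the 3 higher became 2 to 5 and the 4 lower became 1 to 3 with each library left out, and 1 was lower with DESeq2 and 1 with a replicate block. Over all genes, the 1354 higher and 1442 lower became 1139 and 1280 with a replicate block and 1069 and 1166 with DESeq2. The labels do not say whether same-numbered libraries were handled together. Correlations of their deviations from the group means over genes were −0.0434, 0.00705 and −0.0893. Not every library correlated best with its own number, and 3 libraries per group are too few for these values to decide it. The replicate block changed no call of *PTGES2*, *PTGES3*, *HPGD*, *PTGR1* or *PTGR2*, while the calls of *AKR1B1*, *PTGR3* and *STIP1* were lost with it.

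With each library left out, the sign turned for some genes that had not passed the threshold. The log2 fold change ranged from −0.063 to 0.32 for *DAGLB*, −0.070 to 0.49 for *MBOAT1*, −0.96 to 0.023 for *PTGER3*, −0.65 to 0.54 for *PTGER4*, −0.0087 to 0.20 for *MGST3* and −0.046 to 0.013 for *FKBP4*, and the cause was not tested. With at least 10 counts in every library, *AKR1B1*, *SLCO3A1*, *PTGER3* and *PTGER4* could not be tested. Depth limits what can be said of *HPGD*, *PTGR2* and the receptors, and of genes at 0.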
